A study of Mus musculus with 9 samples.

Results

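Fatty acids that enter a cell are of use to it only after they have been joined to coenzyme A, and the genes analyzed here encode enzymes and carriers of that step. They are 9 genes, chosen by name, of the 54146 in the RNA-seq table: the long-chain acyl-CoA synthetases Acsl1, Acsl3, Acsl4, Acsl5 and Acsl6, the acyl-CoA synthetase family member Acsf2, and the fatty acid transport protein (FATP) genes Slc27a1, Slc27a2 and Slc27a4. The data are bulk RNA-seq of colonic mucosa from C57BL/6J mice at 15 wk of age, with 1 library per mouse and RNA taken from colonic crypts according to the methods. A group of 5 ApcMin/+ mice (2 females and 3 males) was compared with 4 ApcMin/+; p16cis/cis mice (3 females and 1 male), which are called p16cis/cis mice below. Both groups carry ApcMin, a germline mutation of 1 copy of the tumor suppressor Apc. Only the second group carries p16cis on both chromosomes, a knocked-in cis-element that spreads DNA methylation over the p16 promoter. Both alleles are germline, so every cell type in the tissue has them.

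Long-chain acyl-CoA synthetases sit on the endoplasmic reticulum, the mitochondrial outer membrane, peroxisomes and lipid droplets, and the resulting acyl-CoA can be oxidized, stored as triglyceride or built into membrane phospholipids and sphingolipids. FATPs also carry acyl-CoA synthetase activity, so that a fatty acid that has crossed the membrane is trapped as its acyl-CoA. In the intestine these genes are best known from the absorptive epithelium, which handles dietary fat in the small bowel and short-chain fatty acids from bacteria in the colon.

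The libraries held 15745098 to 17885918 reads on genes in ApcMin/+ mice and 13523500 to 14900228 in p16cis/cis mice. The share of reads on mitochondrial genes was 8.74% to 15.6% in the first group and 19.3% to 29.8% in the second, with no overlap. Cdkn2a, which encodes p16, was listed at 0 in all 9 libraries, where 3 reads would have been a share of 1.68e-05% to 2.22e-05% (counting error only), and so it did not check the genotype labels. Its neighbor Cdkn2b averaged 900 ± 222 and 847 ± 96.4 normalized counts (SD, n = 5 and 4; adjusted p = 0.818 by limma). For the marker counts that follow, limma called 8.75% of all 14410 genes tested lower and 8.14% higher at an adjusted p under 0.05. Of the absorptive colonocyte marker genes all 8 had log2 fold changes below 0, 2 fell (Slc26a3 and Slc9a3), and none of the 8 was at 0 in all mice. Their summed level was 131896 to 281152 normalized counts in ApcMin/+ mice and 90176 to 118188 in p16cis/cis mice. Car1 was the largest part of that sum, with means of 92501 and 51029. Its own values overlapped between the groups and it was not called (adjusted p = 0.075 by limma). Crypt progenitor genes summed to 8100 to 12489 and 12128 to 16068 (1 of 8 rose, Mki67), and goblet cell genes to 287124 to 439602 and 304739 to 585695 (1 of 8 rose, Spink4). Small intestinal enterocyte genes summed to 3258 to 6595 and 1448 to 2128, and 3 of 5 tested fell (Sis, Alpi and Apob). Immune cell genes summed to 179 to 1824 and 360 to 547 (2 of 10 fell, Lyz2 and Jchain), stromal genes to 299 to 1030 and 191 to 427 (1 of 9 fell, Col3a1), erythroid genes to 1196 to 7286 and 366 to 4543 (1 of 6 fell, Alas2), and enteric neuron and glia genes to 63.6 to 97.9 and 112 to 149 (0 of 3 called). Adipocyte genes summed to 126 to 425 and 44.2 to 90.2. The adipocyte sum came almost wholly from Cidec, which fell, while Lep was at 0 in all mice and Adipoq and Plin1 were near 0. Distal colon Hox genes summed to 6622 to 11452 and 9539 to 12714 (1 of 6 rose, Hoxd10). Without ApcMin/+ replicate 4, 6 immune cell genes, 6 stromal genes and 1 progenitor gene fell, and 2 progenitor genes and 2 Hox genes rose, and without ApcMin/+ replicate 1, 4 Hox genes rose. The single call on the stromal genes was lost without ApcMin/+ replicate 1, 3 or 5 and p16cis/cis replicate 1 or 4, that on the erythroid genes without ApcMin/+ replicate 3 and p16cis/cis replicate 1 or 2, and that on the Hox genes without any mouse other than ApcMin/+ replicates 1 and 4. Absorptive colonocyte calls were 1 without ApcMin/+ replicate 3 or p16cis/cis replicate 2, and 2 progenitor genes rose and 1 goblet cell gene fell without ApcMin/+ replicate 5. The calls over all genes moved too, with 1797 lower and 1691 higher by limma without ApcMin/+ replicate 4. Without any other mouse they were 648 to 1184 lower and 535 to 1079 higher, against 1261 and 1173 with all mice. Values are normalized counts throughout, that is, reads on a gene after scaling by the size factor of its library. In bulk tissue, fewer cells of a type and less RNA per cell cannot be told apart, and the part of cell composition and of the mitochondrial share in the results below was not tested except where a value is given.

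Of the 9 genes, 8 passed the filter for testing (at least 10 normalized counts in at least 4 mice), and Acsl6 did not. By limma with Benjamini-Hochberg adjustment over 14410 genes, Acsl3 fell in p16cis/cis mice and was the only one of the 8 called at an adjusted p under 0.05. For comparison, 8.75% of all genes tested were called lower. None of the 8 was called higher, against 8.14% of all genes, and 1 of them (Slc27a1) was higher at an unadjusted p under 0.05. At the lower side, 3 had an unadjusted p under 0.05. In either direction, 4 of the 8 and 4779 of all 14410 genes had one. The edgeR and DESeq2 count tests on the recovered reads called 2 lower each, Acsl3 and Slc27a4, and 0 higher. Over all genes, edgeR with TMM scaling called 1304 lower and 1165 higher of 14410. DESeq2 called 1725 lower and 1526 higher of the 29936 genes to which it gave a p-value. None of the 8 changed by over 2-fold in any of these tests, against 3.48% of all genes by limma. The values of 3 genes, Acsl3, Acsl5 and Slc27a4, did not overlap between genotypes and were lower in every p16cis/cis mouse, where 8.95% of all genes were so separated. No member was separated in the other direction, where 7.24% of all genes were. The median log2 fold change (p16cis/cis minus ApcMin/+) was -0.26 over the 8 genes and -0.0041 over all 14410, and 6 of the 8 lay below 0.

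**Figure D1:**
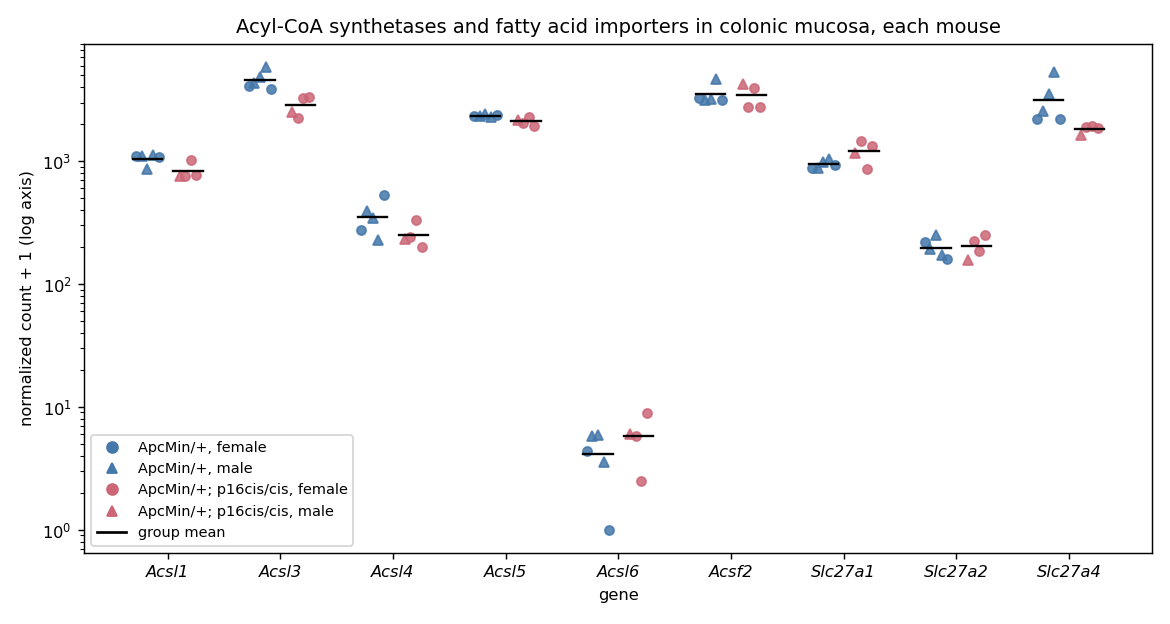
Normalized count + 1 of each of the 9 genes in each mouse, on a log axis, for ApcMin/+ mice (blue, n = 5) and p16cis/cis mice (red, n = 4), with circles for females, triangles for males and a bar at the group mean. Acsl3, Acsl5 and Slc27a4 are lower in all 4 p16cis/cis mice than in any ApcMin/+ mouse, Acsl6 lies near 0, and the other genes overlap.

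**Figure D2:**
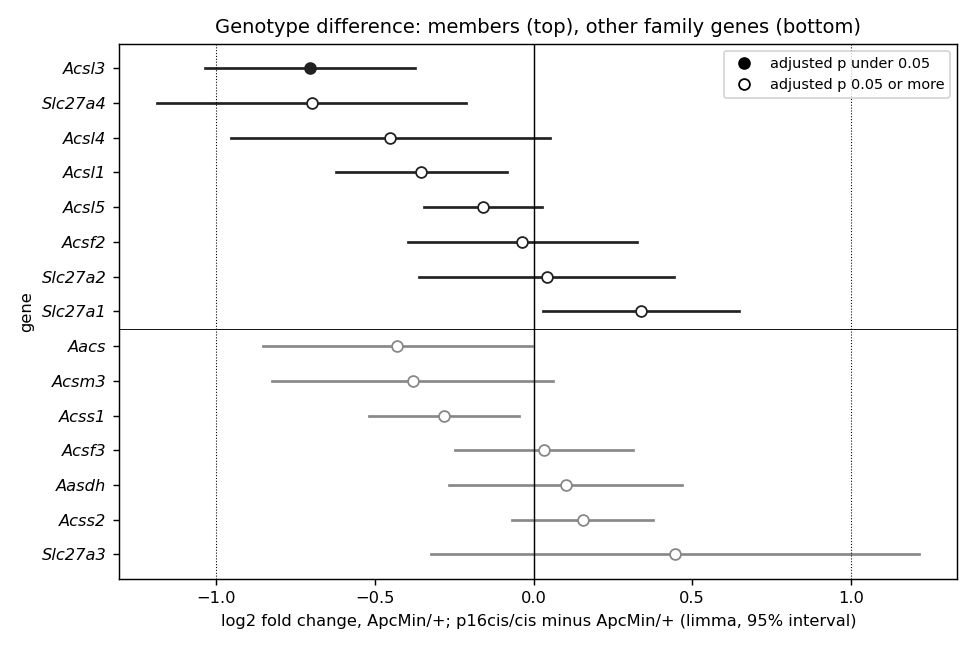
Log2 fold change (p16cis/cis minus ApcMin/+) with its 95% interval from limma for the 8 genes tested (top, black) and for 7 other genes of the same families (bottom, gray), where filled points have an adjusted p under 0.05 and dotted lines mark 2-fold. Acsl3 at -0.70 is the only filled point, and no estimate passes the 2-fold lines.

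The levels of the genes in the mucosa were compared per kilobase of the longest coding transcript, as the mean over all 9 mice. Acsf2 was at 1100 ± 214 and Acsl3 at 970 ± 287 normalized counts per kb (SD, n = 9). Slc27a4 followed at 634 ± 287 and Acsl5 at 529 ± 38.6, then Slc27a1 at 380.02 ± 78.1 and Acsl1 at 244 ± 41.5. Slc27a2 was at 68.6 ± 12.5, Acsl4 at 58.3 ± 19.6 and Acsl6 at 0.66 ± 0.40. Some neighbors in this order were not distinct, since Acsf2 exceeded Acsl3 in 6 of 9 mice, Slc27a4 exceeded Acsl5 in 4 of 9, Acsl5 exceeded Slc27a1 in 7 of 9, and Slc27a2 exceeded Acsl4 in 7 of 9. The other steps of the order held in 9 of 9 mice. Within ApcMin/+ mice Acsl3 had a higher mean per kb than Acsf2 (1170 ± 197 and 1109 ± 216) and Slc27a4 a higher one than Acsl5 (780 ± 323 and 555 ± 14.3). Within p16cis/cis mice both pairs stood the other way, with Acsf2 at 1089 ± 245 and Acsl3 at 720 ± 137, and Acsl5 at 498 ± 35.8 and Slc27a4 at 453 ± 31.9 normalized counts per kb (SD, n = 4). With the length of all merged exons in place of the longest coding transcript, only Slc27a2 and Acsl4 changed places. The mucosa therefore held a group of well-expressed genes and 3 scarce ones.

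Promoters are shown for Acsl3, Slc27a4 and Acsl5 because they are the genes whose genotypes did not overlap. RefSeq promoter windows (GRCm38.p6, 250 bases before to 50 after a start site) were found for 9 of the 9 genes, 14 windows in all. Capitals mark the GC box GGGCGG, which Sp factors bind, and the CCAAT box of NF-Y, each searched on both strands, so that CCGCCC and ATTGG are the same boxes read from the other strand.
Acsl3, chr1:78657575-78657874, plus strand: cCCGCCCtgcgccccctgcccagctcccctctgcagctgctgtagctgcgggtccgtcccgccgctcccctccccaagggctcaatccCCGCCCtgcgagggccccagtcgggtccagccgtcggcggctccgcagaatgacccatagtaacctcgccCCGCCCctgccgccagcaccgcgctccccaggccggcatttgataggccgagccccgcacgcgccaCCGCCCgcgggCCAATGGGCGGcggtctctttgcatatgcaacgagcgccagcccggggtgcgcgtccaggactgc
Slc27a4, chr2:29802384-29802683, plus strand: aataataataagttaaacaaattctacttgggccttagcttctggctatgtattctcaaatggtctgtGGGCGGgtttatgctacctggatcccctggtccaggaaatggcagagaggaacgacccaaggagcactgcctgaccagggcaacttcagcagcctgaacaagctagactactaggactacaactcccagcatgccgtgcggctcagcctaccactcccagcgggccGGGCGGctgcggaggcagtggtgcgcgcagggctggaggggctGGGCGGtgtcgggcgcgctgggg
Acsl5, chr19:55253119-55253418, plus strand: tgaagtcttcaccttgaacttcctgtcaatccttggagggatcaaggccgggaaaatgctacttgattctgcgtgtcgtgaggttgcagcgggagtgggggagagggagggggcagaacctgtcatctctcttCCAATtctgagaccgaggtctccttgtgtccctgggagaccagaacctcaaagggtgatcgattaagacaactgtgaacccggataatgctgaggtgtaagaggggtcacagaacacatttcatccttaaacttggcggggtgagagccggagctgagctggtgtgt
The Acsl3 window is a CpG-rich one, with 33 CpG and 74% G+C, 5 GC boxes and 1 CCAAT box that directly precedes the last GC box. The Slc27a4 window has 14 CpG, 58.7% G+C and 3 GC boxes. In the Acsl5 window there are 9 CpG, 53% G+C and 1 CCAAT box, and its start site lies inside the gene as GENCODE draws it. Across 32851 RefSeq windows the median was 7 CpG, the GC box was found in 35.7% and the CCAAT box in 37.4%, and 11 of the 14 windows of these genes were above that median. The 3 windows held no TATAAA (13.6% of all windows), no AGGTCA, the hexamer that PPAR and other nuclear receptors read (16.3%), no sterol response site TCACNCCAC (1.24%) and no E-box CACGTG (7.15%). Among the other members, AGGTCA was found in the Slc27a2 window and in a window of Acsl6, TCACNCCAC in a window of Acsl1 and CACGTG in a window of Slc27a1. These are matches of letters only.

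Acsl3, an enzyme of the endoplasmic reticulum and of nascent lipid droplets that is known for activating oleate and other long-chain fatty acids as the droplets form, fell by 0.70 on the log2 scale. The gene (ENSMUSG00000032883.15) is protein coding and lies at chr1:78657825-78707743 on the plus strand of GRCm38. The 5 ApcMin/+ mice, in replicate order, had 4114, 4362, 4891, 5840 and 3892 normalized counts. The 4 p16cis/cis mice had 2528, 2243, 3274 and 3327. All p16cis/cis mice lay below the lowest ApcMin/+ mouse. The means were 4620 ± 777 and 2843 ± 542 (SD, n = 5 and 4). Limma gave a log2 fold change of -0.70 ± 0.15 (SE; 95% interval -1.03 to -0.37), which is a 1.63-fold lower level on that scale, and an adjusted p of 0.0112. In order of p, Acsl3 was at rank 706 of 14410 genes. Leaving out each mouse in turn kept the call in 9 of 9 fits, with estimates from -0.79 to -0.60. The call was also made by edgeR (-0.70, adjusted p = 0.0124) and DESeq2 (-0.70, adjusted p = 0.000461), and with sex as a covariate (-0.66, adjusted p = 0.0316). It was lost among the 5 females alone (-0.46, adjusted p = 0.159) and with the mitochondrial share as a covariate (-0.34, adjusted p = 0.876). Exons of Acsl3 share 244 bp with Utp14b on the same strand, and Utp14b averaged 527 ± 109 and 453 ± 59.8 normalized counts (adjusted p = 0.377 by limma).

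Acsl5, an enzyme of mitochondria and the endoplasmic reticulum that is abundant in intestinal epithelium and linked to triglyceride synthesis, varied least of the 9 among ApcMin/+ mice. It is ENSMUSG00000024981.6 at chr19:55251938-55297720 on the plus strand. In ApcMin/+ mice it had 2320, 2314, 2443, 2302 and 2392 normalized counts, a coefficient of variation of 2.58%. In p16cis/cis mice it had 2168, 2050, 2290.1 and 1938. The highest p16cis/cis mouse lay just under the lowest ApcMin/+ mouse. From 2354 ± 60.7 to 2111 ± 152 (SD, n = 5 and 4), the log2 fold change was -0.16 ± 0.09 (SE; 95% interval -0.35 to 0.03) with an adjusted p of 0.216 by limma, so that the separation of the groups came with a small difference that did not pass the test. Acsl5 shares 404 bp of exons with Zdhhc6, a palmitoyltransferase gene on the opposite strand, which fell from 802 ± 45.4 to 628 ± 51.1 normalized counts (-0.35, adjusted p = 0.0295 by limma). Whether the counting used strand is not given in the sources used here, and in an unstranded count reads from the shared stretch cannot be told apart.

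Acsl1, the major synthetase of fat, heart and muscle, whose acyl-CoA is known to be used mainly for mitochondrial oxidation and triglyceride, is ENSMUSG00000018796.13 at chr8:46471037-46536051 on the plus strand. The ApcMin/+ mice had 1095, 1093, 867, 1127.5 and 1076 normalized counts. The p16cis/cis mice had 755, 759, 1026 and 766. In both groups replicate 3 stood apart from mice that otherwise lay close together, low among ApcMin/+ mice and high among p16cis/cis mice, and the groups overlapped through these mice alone. From 1052 ± 105 to 827 ± 133 (SD, n = 5 and 4) the log2 fold change was -0.35 ± 0.12 (SE; 95% interval -0.62 to -0.08; adjusted p = 0.0688 by limma). Without p16cis/cis replicate 3 it was -0.46 and passed the threshold (adjusted p = 0.0222).

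Acsl4, the X-linked synthetase that prefers arachidonic acid and supplies the polyunsaturated phospholipids on which ferroptosis depends, is ENSMUSG00000031278.12 at chrX:142317993-142390535 on the minus strand. It had 275, 391, 346, 228 and 526 normalized counts in ApcMin/+ mice. It had 234, 239, 334 and 201 in p16cis/cis mice. The groups overlapped, and the spread among ApcMin/+ mice was wide. The means were 353 ± 115 and 252 ± 57.2 (SD, n = 5 and 4), with a log2 fold change of -0.45 ± 0.23 (SE; 95% interval -0.95 to 0.05; adjusted p = 0.195 by limma).

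Acsl6, best known from brain and from developing red cells, is ENSMUSG00000020333.17 at chr11:54303798-54364756 on the plus strand. Its reads were 3, 5, 5, 2 and 0 in the ApcMin/+ libraries and 4, 3, 1 and 5 in the p16cis/cis libraries. At this depth the gene was at or near the floor of 3 reads in both genotypes, and no difference was detectable.

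Acsf2, a mitochondrial synthetase for fatty acids of medium length, is ENSMUSG00000076435.3 at chr11:94557102-94601871 on the minus strand. Its ApcMin/+ values were 3280, 3133, 3228, 4713 and 3135 normalized counts. Its p16cis/cis values were 4235, 2774, 3954 and 2773. Within ApcMin/+ mice 4 values lay together and replicate 4 was high, and the p16cis/cis mice fell into a higher and a lower pair on either side of them. The means, 3498 ± 682 and 3434 ± 771 (SD, n = 5 and 4), gave a log2 fold change of -0.04 ± 0.17 (SE; 95% interval -0.40 to 0.33; adjusted p = 0.908 by limma). The direction changed under several alternatives, and no direction is given for it here.

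Slc27a4, which encodes FATP4, the main FATP of small intestinal enterocytes, had nearly the same estimate as Acsl3 and a wider spread. It is ENSMUSG00000059316.2 at chr2:29802634-29817522 on the plus strand. The ApcMin/+ mice had 2215, 2558, 3496, 5307 and 2226 normalized counts. The p16cis/cis mice had 1649, 1882, 1944 and 1872. Replicate 4 of the ApcMin/+ group was far above the rest, both ApcMin/+ females were the lowest of their group, and the genotypes still did not overlap. The group means were 3160 ± 1309 and 1837 ± 129 (SD, n = 5 and 4), and the coefficient of variation among ApcMin/+ mice was 41.4%. Limma gave -0.70 ± 0.22 (SE; 95% interval -1.19 to -0.21), or 1.62-fold lower on the log scale, and an adjusted p of 0.0508, which missed the threshold. By edgeR the log2 fold change was -0.78 (adjusted p = 0.0376), and by DESeq2 -0.78 (adjusted p = 0.0093), which passed it. Without ApcMin/+ replicate 4 the estimate was smaller and passed the threshold in limma (-0.49, adjusted p = 0.0253), and the ApcMin/+ mean was then 2624 ± 603 (SD, n = 4). With sex as a covariate it was -0.57 (adjusted p = 0.122), and among females alone -0.23 (adjusted p = 0.302).

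Slc27a1 encodes FATP1, the insulin-responsive transporter of muscle and fat, and was the only member above 0 with an interval that left out 0. The gene is ENSMUSG00000031808.7 at chr8:71568882-71587302 on the plus strand. Values in the ApcMin/+ mice were 887, 880.5, 980.5, 1036 and 927 normalized counts. In p16cis/cis mice they were 1176, 1469, 867 and 1336. Of the p16cis/cis mice, 3 lay above all ApcMin/+ mice and replicate 3 lay below them. The means were 942 ± 65.8 and 1212 ± 259 (SD, n = 5 and 4), and the log2 fold change was 0.34 ± 0.14 (SE; 95% interval 0.03 to 0.65) with an adjusted p of 0.118 by limma. Without p16cis/cis replicate 3 it was 0.49 (adjusted p = 0.0174).

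Slc27a2 encodes FATP2, the very long-chain acyl-CoA synthetase of liver and kidney, and was scarce in this mucosa. It is ENSMUSG00000027359.16 at chr2:126552407-126588243 on the plus strand. ApcMin/+ mice had 218, 190.2, 249, 172 and 159 normalized counts. The p16cis/cis mice had 155, 225, 185 and 251. The ranges were nearly the same. Means of 197 ± 36.2 and 204 ± 42.2 (SD, n = 5 and 4) gave a log2 fold change of 0.04 ± 0.18 (SE; 95% interval -0.36 to 0.44; adjusted p = 0.902 by limma), and the sign changed under several alternatives.

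The makeup of each family was described by the share of each gene in the summed level of its family. The summed level of the 5 Acsl genes per kb of coding transcript was 2062 ± 179 in ApcMin/+ mice and 1478 ± 176 in p16cis/cis mice (SD, n = 5 and 4), with no overlap (1922 to 2354 and 1292 to 1695). Acsl3 made up 56.4% ± 4.50 of that sum in ApcMin/+ mice and 48.4% ± 4.74 in p16cis/cis mice, with overlap. The share of Acsl5 was 27.1% ± 2.40 and 33.9% ± 3.74 (SD, n = 5 and 4), and its ranges, 23.1% to 29.3% and 29.8% to 37.4%, did not overlap. Acsl5 was thus a larger part of a smaller sum. Acsl1 held 13.2% ± 1.70 and 14.3% ± 1.22, and Acsl4 3.30% ± 1.25 and 3.22% ± 0.547. Among the 3 FATP genes, Slc27a4 made up 64.2% ± 7.02 in ApcMin/+ mice (58.2% to 75.3%) and 47.7% ± 5.76 in p16cis/cis mice (43.5% to 56.2%). Slc27a1 made up 29.8% ± 5.70 (21.3% to 35.5%) and 45.0% ± 5.86 (36.4% to 49.3%) in the same order. In both ApcMin/+ females Slc27a4 held a larger share (58.2% and 58.7%) than in the 3 p16cis/cis females (43.5%, 56.2% and 45.02%). The summed FATP level overlapped between the groups (935 to 1739 and 853 to 1067). Shares move against each other by construction, and these are values without a test. With merged exon lengths the same shares did not overlap, and Slc27a4 was then at least 57.8% of the FATP sum in every mouse.

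**Figure D3:**
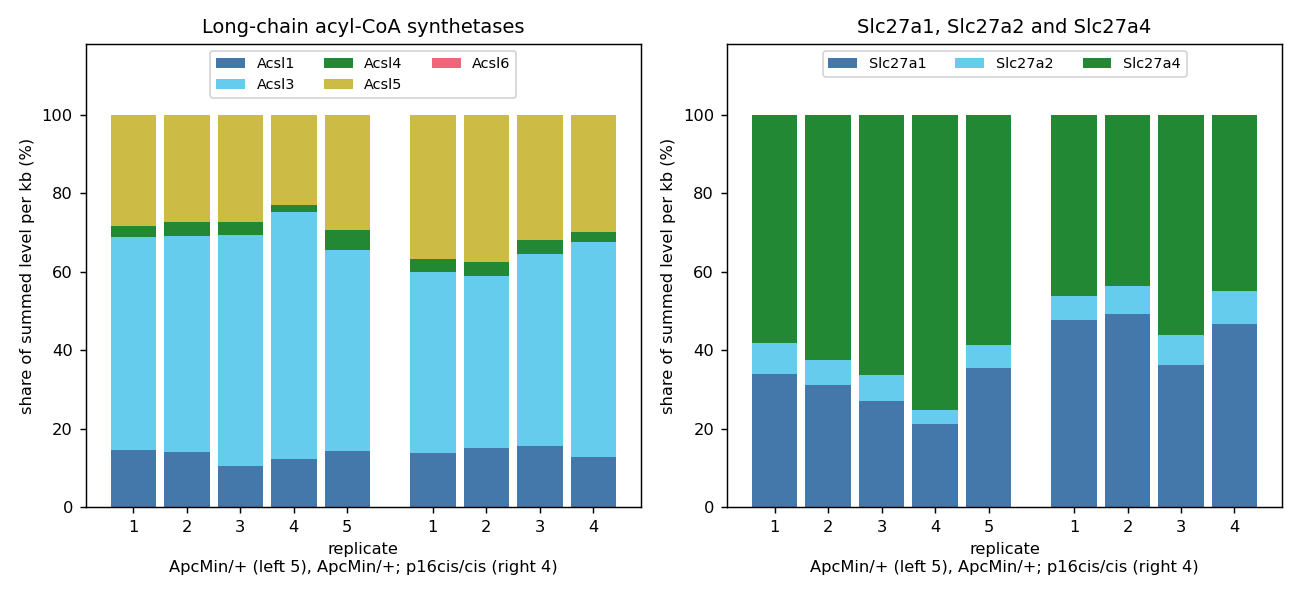
Share (%) of the summed normalized count per kb of longest coding transcript taken by each Acsl gene (left) and by Slc27a1, Slc27a2 and Slc27a4 (right). Each bar is a mouse, with 5 ApcMin/+ mice on the left of each panel and 4 p16cis/cis mice on the right. Acsl5 takes 29.8% to 37.4% in p16cis/cis mice and 23.1% to 29.3% in ApcMin/+ mice, and Slc27a4 takes 43.5% to 56.2% and 58.2% to 75.3%.

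The same families hold further genes. Of 16 other acyl-CoA synthetase and FATP genes, 7 passed the filter, and limma called 0 of them at an adjusted p under 0.05, as did edgeR and DESeq2. At an unadjusted p under 0.05 limma found 2, both lower, which were the acetyl-CoA synthetase Acss1 and the acetoacetyl-CoA synthetase Aacs. Over all genes, 4779 of 14410 passed that threshold in either direction. The median log2 fold change of the 7 was 0.03. The most abundant was Acss2, the cytosolic acetyl-CoA synthetase, at 3385 ± 167 and 3784 ± 453 normalized counts (0.15, adjusted p = 0.318 by limma). Acsm1, Acsm2, Acsm5 and Acsbg2 were at 0 in all 9 mice.

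Genes that hand fatty acids and acyl-CoA to these enzymes, or carry them away, were described by 1 list of uptake and carriage, of which 10 of 12 were tested. A single gene of this list fell, where limma called 8.75% of all genes tested lower. It was Scp2, whose product is a peroxisomal thiolase and lipid carrier, at 1588 ± 112 and 796 ± 58.9 normalized counts (-0.996 ± 0.096, SE; adjusted p = 0.000615 by limma). The median log2 fold change was -0.57 with 8 of 10 below 0, among them Fabp1 (-1.90) and Cav1 (-2.29). Fabp1 passed the filter through ApcMin/+ mice alone, with at most 9.57 normalized counts in p16cis/cis mice. Its direction was thus fixed by the filter. Cav1 was also low in p16cis/cis mice, with a mean of 10.5. By edgeR 3 of the 10 fell, and by DESeq2 4, and in limma 2 fell without ApcMin/+ replicate 1 or 4. Over all genes, edgeR called 1304 of 14410 lower and DESeq2 1725 of 29936. Limma called 969 lower without ApcMin/+ replicate 1 and 1797 without replicate 4, against 1261 with all mice. Dbi, the acyl-CoA binding protein, had the highest mean of the list over all 9 mice, at 5025 ± 1171 and 5062 ± 601 (0.04, adjusted p = 0.908 by limma). Fabp2, the intestinal fatty acid binding protein, was above Dbi in the mean of ApcMin/+ mice, at 6002 ± 2081 and 3598 ± 1042 (-0.72, adjusted p = 0.0686 by limma). Cd36, the fatty acid translocase, was not tested, with means of 3.27 and 1.02.

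Entry of acyl-CoA into mitochondria and peroxisomes was the list with the most genes called. Of 10 tested, 6 fell, and the median log2 fold change was -0.48. Of all genes tested, limma called 8.75% lower. Abcd3, the peroxisomal transporter of long and branched acyl-CoA, fell from 4625 ± 892 to 2359 ± 84.8 normalized counts (-0.95, adjusted p = 0.00247 by limma). Slc22a5, which imports carnitine, fell from 584 ± 132 to 337 ± 17.99 (-0.77, adjusted p = 0.00909 by limma). Acacb, the mitochondrial acetyl-CoA carboxylase whose product inhibits Cpt1, fell from 565 ± 166 to 311 ± 33.2 (-0.81, adjusted p = 0.0228 by limma). Slc25a20, the carnitine-acylcarnitine carrier, Crot, the peroxisomal carnitine octanoyltransferase, and Cpt1a, which commits acyl-CoA to oxidation, fell by 0.64, 0.46 and 0.51 on the log2 scale. Cpt1a was the most abundant of the list, at 6882 ± 1185 and 4857 ± 948 (adjusted p = 0.0411 by limma). With sex as a covariate 2 of the 10 fell. The number that fell was 2 without ApcMin/+ replicate 3, 3 without p16cis/cis replicate 3 or 4, and 4 to 6 without any other mouse. Over all genes, limma called 761 lower with sex and 670 without ApcMin/+ replicate 3. It called 1184 and 648 lower without p16cis/cis replicates 3 and 4, against 1261 with all mice.

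Genes that build glycerolipid from acyl-CoA were described by 1 list of acyltransferases and Lpin phosphatidate phosphatases. Of 14 tested, 4 fell and 1 rose, with a median log2 fold change of -0.15. Of all genes tested, limma called 8.75% lower and 8.14% higher. Those that fell were Mogat2 and Dgat2, which act in triglyceride synthesis (-1.03, adjusted p = 0.0236, and -1.01, adjusted p = 0.0224, by limma), Gpat3, a glycerol-3-phosphate acyltransferase (-0.94, adjusted p = 0.0067 by limma), and Lpin2, a phosphatidate phosphatase (-0.84, adjusted p = 0.00384 by limma). Agpat1, a lysophosphatidate acyltransferase and the most abundant of the list, rose from 4261 ± 793 to 5959 ± 695 normalized counts (0.50, adjusted p = 0.0308 by limma). The number that fell was 2 without ApcMin/+ replicate 3 and without p16cis/cis replicate 1 or 2, and 3 to 4 without any other mouse. Over all genes, limma calls lower numbered 670, 1128 and 687 without those mice in turn, against 1261 with all mice. The call on Agpat1 was lost with sex as a covariate, among females only, without ApcMin/+ replicate 2, 3 or 5, and without p16cis/cis replicate 2 or 4. In those fits, calls higher over all genes numbered 519 to 952, against 1173.

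Phospholipid remodelling genes were described by 12 genes, all tested, with a median of -0.10. By limma, edgeR and DESeq2, 2 fell and 0 rose, with 0 higher at an unadjusted p under 0.05. Of all genes tested, limma called 8.75% lower and 8.14% higher. The genes that fell were Mboat2 (140 ± 54.0 and 58.0 ± 16.3 normalized counts, -1.22, adjusted p = 0.0171 by limma) and Lpcat3 (2445 ± 530 and 1538 ± 187, -0.65, adjusted p = 0.0195 by limma), both lysophospholipid acyltransferases. Mboat1, of the same kind and the most abundant here, was at 4646 ± 653 and 4324 ± 461 (-0.10, adjusted p = 0.612 by limma). Without p16cis/cis replicate 2 limma called 0 of the 12, with 3 lower at an unadjusted p under 0.05. Of all 14410 genes, 3989 had such a p without that mouse, in either direction. The number that fell was 1 without ApcMin/+ replicate 3 or p16cis/cis replicate 4. Over all genes, limma called 670 lower without the former and 648 without the latter. It called 687 lower without p16cis/cis replicate 2, against 1261 with all mice.

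Of 9 genes tested that use acyl-CoA for sphingolipids or fatty alcohols, 2 fell by limma, edgeR and DESeq2, and the median was -0.31. Of all genes tested, limma called 8.75% lower. Far1, a fatty acyl-CoA reductase of ether lipid synthesis, fell from 2937 ± 612 to 1974 ± 184 normalized counts (-0.55, adjusted p = 0.0313 by limma). Sptlc1, a subunit of serine palmitoyltransferase, fell from 1258 ± 47.1 to 970 ± 34.5 (-0.37, adjusted p = 0.0128 by limma). The other subunit and most abundant gene of the list, Sptlc2, was at 3963 ± 516 and 3183 ± 290 (-0.31, adjusted p = 0.0816 by limma). The number that fell stayed at 2 without ApcMin/+ replicate 4 or p16cis/cis replicate 1 and was 1 without any other mouse. Over all genes, limma calls lower numbered 1797 and 1128 without the named mice. They numbered 648 to 1184 without any other, against 1261 with all mice.

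The genes whose pattern over the 9 mice was most like that of Acsl3 were found from log2(normalized count + 1), each gene centered on its own mean, by the root mean square difference from Acsl3. They were Chmp1b (0.102), Cndp2 (0.112), Rnf103 (0.118), Chp1 (0.127) and Mvp (0.130), where the root mean square of Acsl3 about its own mean was 0.416. Each of the 5 also fell, with log2 fold changes from -0.71 (Rnf103) to -0.50 (Mvp). Likeness over 9 mice includes the genotype difference itself and is a description.

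Sex and the mitochondrial share moved with genotype in these mice, and their values are given beside Acsl3 and Slc27a4. Among ApcMin/+ mice, the 3 males had 4362, 4891 and 5840 normalized counts of Acsl3 and the 2 females 4114 and 3892. For Slc27a4 the males had 2558, 3496 and 5307 and the females 2215 and 2226. Males were higher for both genes in this group, and there was only 1 male among p16cis/cis mice, with the lowest Slc27a4 value and the next-to-lowest Acsl3 value of all mice. Of the variance of the mitochondrial share 78.1% lay between genotypes. With that share as a covariate limma called 0 of 14410 genes (798 at an unadjusted p under 0.05), so that every call above on a list gene was lost in that fit. The mitochondrial share and genotype cannot be told apart here. When values were scaled to the reads outside mitochondrial genes, Acsl3 was at -0.70 (adjusted p = 0.00483) and Slc27a4 at -0.69 (adjusted p = 0.0331) by limma.

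**Figure D4:**
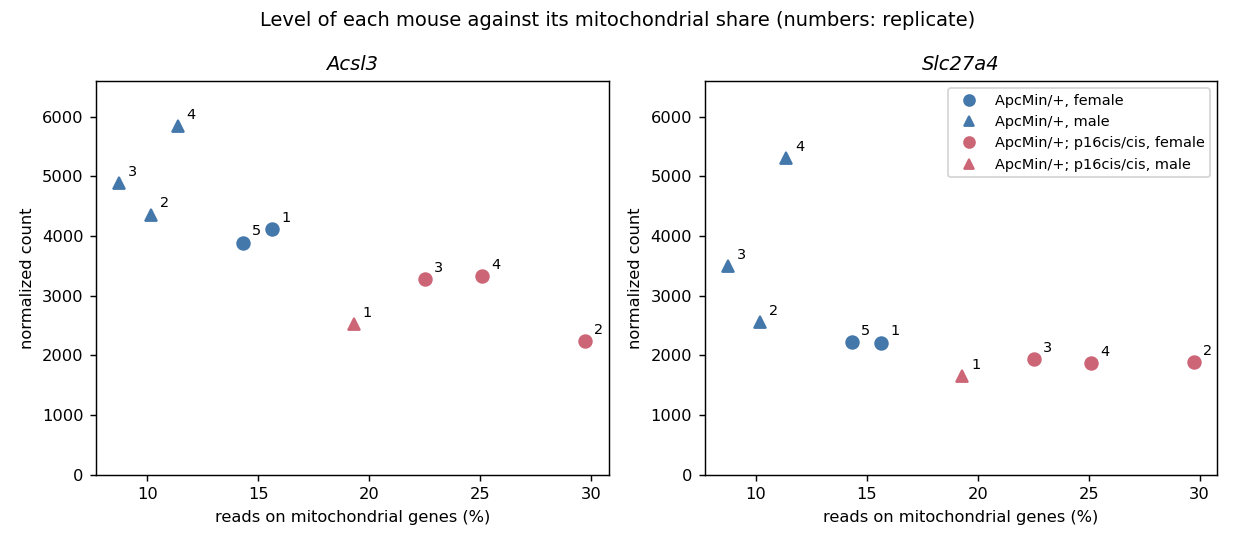
Normalized count of Acsl3 (left) and Slc27a4 (right) against the percent of reads on mitochondrial genes, 1 point per mouse labeled with its replicate number, blue for ApcMin/+ and red for p16cis/cis, circles for females and triangles for males. The genotypes are apart on both axes, and among ApcMin/+ mice the 3 males have lower mitochondrial shares and higher levels than the 2 females.

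**Figure D5:**
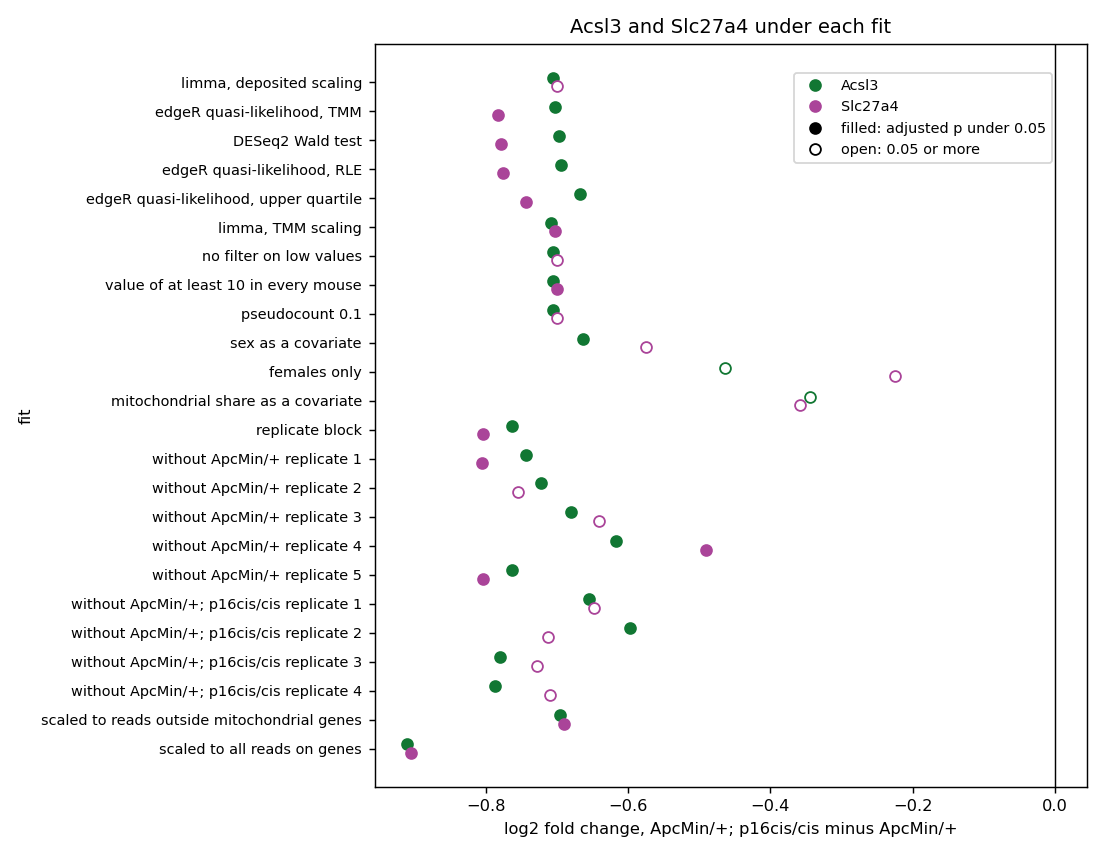
Log2 fold change (p16cis/cis minus ApcMin/+) of Acsl3 (green) and Slc27a4 (purple) under each fit, filled where the adjusted p is under 0.05. All estimates lie below 0, Acsl3 is open only for females alone (-0.46) and with the mitochondrial share as a covariate (-0.34), and Slc27a4 changes between filled and open.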

How the data were processed

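RNA-seq was analyzed in colonic mucosa of 9 mice (5 ApcMin/+ and 4 ApcMin/+; p16cis/cis). Per the methods, the authors aligned reads with BOWTIE2, computed gene levels with RSEM and compared genotypes with DESeq2, and the genome build of this step is not given in the sources used here. The deposited table holds signal values, that is, counts per gene scaled by DESeq2-type size factors. Dividing by the step of each column gave whole reads for 100% of values (tolerance 0.01 reads). The planned limma 3.58.1 fit (R 4.3.3, trended variances, genotype as the only term) was run on log2(normalized count + 1) over 14410 genes with at least 10 in at least 4 mice, with Benjamini-Hochberg adjustment and calls at an adjusted p under 0.05. Fold changes on this scale understate those of low genes. The limma procedure was tested on simulated counts. Alternatives were edgeR 4.0.16 (quasi-likelihood) and DESeq2 1.42.0 on the recovered reads, other scalings, filters and covariates, the replicate block and each mouse left out. Coordinates are from GENCODE M21 (52480 identifiers matched with version, 54079 without), and promoters from RefSeq. Gpat3 was matched by identifier, since the table lists it under an older symbol. The genes and lists were chosen with earlier results of these data known. Named genes are the 9 genes, Cdkn2a and Cdkn2b, up to 3 called genes per direction and the most abundant gene of each list, and for the called members the 5 genes of nearest pattern. Fabp1, Fabp2, Cav1, Cd36, Acss1, Aacs, Slc27a3, Slc25a20, Crot, Lpin2, Utp14b, Zdhhc6, Car1 and the genes at or near 0 were named after their values were seen. The most abundant marker genes of the other marker lists were not named for their abundance. A single gene of the list of mitochondrial and peroxisomal entry is not reported here.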

Additional observations from a re-analysis of the deposited data

Results flagged for a closer look

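In each genotype, a value was marked where a single mouse stood apart from the rest of its group by Dixon's 95% criterion. Of 18 groups checked (9 genes in 2 genotypes) 3 were marked, where chance gives about 0.9. Acsl1 in ApcMin/+ replicate 3 was 867 normalized counts, against 1076 to 1127.5 in the other 4 mice. Acsl1 in p16cis/cis replicate 3 was 1026, against 755 to 766 in the other 3. Acsf2 in ApcMin/+ replicate 4 was 4713, against 3133 to 3280 in the other 4.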

How the results depend on the processing

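Acsl3 stayed below 0 in 14 of 14 alternatives and was called in 12 of them. Slc27a4 stayed below 0 in 14 of 14 and was called in 9, among them the replicate block and the scaling to all reads. It was not called with sex (adjusted p = 0.122 by limma), among females only (0.302) or with the mitochondrial share (0.919). Nor was it called with no filter (0.0553) or a pseudocount of 0.1 (0.0531). The number of members called lower, 1 in the limma fit, was 2 (Acsl3 and Slc27a4) with edgeR under TMM, RLE and upper-quartile scaling, with DESeq2, with limma on TMM-scaled values, with at least 10 normalized counts in every mouse, and when scaled to reads outside mitochondrial genes. It was 0 among females only and with the mitochondrial share as a covariate. There 1 and 0 members had an unadjusted p under 0.05, against 3780 and 798 of all 14410 genes. Scaled to all reads on genes it was 4 (Acsl1, Acsl3, Acsl5 and Slc27a4). That scaling moved the median of all genes to -0.21 and gave 2740 lower and 481 higher calls against 1261 and 1173. Both scalings to reads were chosen after seeing the data. With each mouse left out, 1 to 2 members were called lower and 0 to 1 higher. The second was Slc27a4 without ApcMin/+ replicates 1, 4 and 5 and Acsl1 without p16cis/cis replicate 3, and the 1 called higher, also without p16cis/cis replicate 3, was Slc27a1 (0.49). No member passed 2-fold under any of these. Acsf2 (-0.04) turned to 0.0077 with upper-quartile scaling, 0.062 with sex and 0.51 with the mitochondrial share, and ranged from -0.15 to 0.077 with each mouse left out. Slc27a2 (0.04) turned to -0.0001 with sex, -0.24 with the mitochondrial share and -0.16 scaled to all reads, and ranged from -0.065 to 0.16 with each mouse left out. The cause was not tested. Calls over all genes numbered 2434 in the limma fit, 1437 with sex, 898 among females, 0 with the mitochondrial share, and 1183 to 3488 with each mouse left out.

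The labels number mice 1 to 5 and 1 to 4, and the same numbers name different mice. The correlations of deviations of same-numbered mice were -0.175, 0.066, 0.0465 and 0.142, so the numbers were not taken as pairs. With the replicate block, 2 members were called lower (Acsl3 at -0.76 and Slc27a4 at -0.80), Slc27a2 turned to -0.031, and 2074 genes were called in all. Depth limited only Acsl6, at 0 to 5 reads per library. With 5 and 4 mice, a difference in sex makeup (3 of 5 and 1 of 4 male) could be modeled only as a covariate or by leaving out the males.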
